A study of Mus musculus with 86 samples.

Results

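This account compares the gastrocnemius of 5 mice given dexamethasone together with the herbal extract JGT03 at 400 mg/kg with the gastrocnemius of 5 non-treated (NT) mice. The 10 libraries were taken by their labels, and they are 10 of 43 gastrocnemius (GA) libraries and 10 of 86 in the series. All mice were male C57BL/6N, aged 10 weeks at supply. The extract group was injected intraperitoneally with 25 mg/kg dexamethasone (DEX), a synthetic glucocorticoid, on each of 10 days and was gavaged with JGT03 after each injection, and muscles were taken a day after the last drug. JGT is Jakyak-gamcho-tang, a hot water extract of peony root (Paeoniae radix) and liquorice root and rhizome (Glycyrrhizae radix et rhizoma), and in JGT03 these were combined at 1:1 by weight. NT mice were injected and gavaged with phosphate-buffered saline (PBS), whereas the extract was given in carboxymethylcellulose in PBS, so extract and vehicle cannot be told apart. The comparison holds both DEX and extract against neither, and asks which DEX responses are seen with extract present, without using the libraries of mice given DEX alone. Beside it stand the GA groups given DEX alone with saline gavage (DEX, 4 mice) and DEX with JGT03 at 100 mg/kg (5 mice).

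Glucocorticoids bind the glucocorticoid receptor, which enters the nucleus and turns genes on or off at DNA sites called glucocorticoid response elements. In muscle, excess glucocorticoid causes loss of mass, a change of fuel use and a fall in connective tissue synthesis, and it acts on the circadian clock and on immune cells. The GA is a mixed leg muscle rich in fast fibres.

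RNA was measured by poly(A) mRNA sequencing, and the files hold 1 expected count for each gene symbol and library. Library totals in the 10 libraries lay between 26778785 and 32143680. Levels below are CPM, the counts of a gene scaled to the depth of its library, with 1 scaling for 19 GA libraries, per mouse in the order of mouse 1 to 5 (1 to 4 in DEX) or as the lowest and highest mouse (a–b). Every value printed with ± in the text is a log2 fold change ± standard error (SE) from edgeR's quasi-likelihood test with Benjamini-Hochberg adjustment over all genes tested. A gene rose or fell where its adjusted p was under 0.05. Gene positions are on GRCm38. For Arntl, Rora, Cry2, Dbp, Usp2, Nr1d1, Agpat2, Srebf1, Elovl6, Adora1, Mt2, Banp, Tmem45b, Fbxo32, Foxo1, Col15a1, Fbn1, Myh1, Myh2, Myh7, Sqstm1, Pln, Myl3, Tnnc2, Myl4, Gadd45a, Itga7, Bmpr1a, Fst, Deptor, mt-Co1, Hk1, Timp3, Loxl2, Cd34, Pdgfra, Slc25a25, Slc8a1 and Ifi30 a gene on the other strand has exons over part of theirs, and reads of both may be counted together. The muscle label was met by the levels, in a scaling that includes soleus, of the fast IIb myosin gene Myh4, at 44796 to 50685 CPM in NT and 43745 to 49384 in the extract group, against 28.3 to 1061 in the soleus of NT mice, and by the slow myosin gene Myh7, at 307 to 406 and 234 to 349 against 6527 to 8010 in soleus.

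Of 13703 genes tested, 4310 changed (31.5%), with 2077 higher (15.2%) and 2233 lower (16.3%) in the extract group. The libraries of the 2 groups did not overlap for 2916 genes (21.3%). Most changes were small: 352 genes (2.57%) passed and differed at least 2-fold, of which 205 were higher (1.50%) and 147 lower (1.07%). In DEX alone against the same NT libraries 2720 of 13786 genes changed (19.7%, with 9.94% higher and 9.79% lower). That fit had 4 DEX mice and a higher common dispersion (0.00984 against 0.00714), so the 2 counts are not like measures. With a fit over all 9 GA groups the counts were 1859 for extract and 1214 for DEX alone against NT. When JGT02 100 mg/kg mouse 1, whose library stands apart, was left out of that fit, they were 4575 and 3811.

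The 12 largest rises among genes with at least 5 CPM included genes of adrenaline synthesis, the acute phase and fat storage. Glra3, a glycine receptor subunit (chromosome 8, 55940460 to 56130070, plus strand), was at 0.137, 0.0619, 0, 0 and 0.034 CPM in NT mice, which is 7 counts in all, and at 8.35, 8.9, 12.4, 6.7 and 6.15 in the extract group (log2 7.36 ± 0.38, adjusted p = 3.94e-08). Lcn2, an iron-binding acute phase protein (chromosome 2, 32384633 to 32388252, minus strand), stood at 1.23, 0.773, 4.12, 0.774 and 1.29 CPM in NT mice and at 82.4, 75.7, 135, 92.1 and 82.9 in the extract group. Mouse 3 was the highest of its group in both, and the groups lay far apart, 58.2-fold in the fit (log2 5.86 ± 0.31, adjusted p = 4.06e-08). Pnmt, the last enzyme of adrenaline synthesis (chromosome 11, 98386450 to 98388181, plus strand), went from 0.815–1.42 to 17–22.2 CPM (log2 4.10 ± 0.13, adjusted p = 8.82e-10). Orm1, an acute phase plasma protein, rose 14.3-fold, but 27.5% of its 31-base sequence words recur in further genes. Gnmt, which uses S-adenosylmethionine to methylate glycine, rose 8.3-fold. Next came Ptger3, a prostaglandin E receptor (2.68 ± 0.11), Tusc5, a fat-cell protein of glucose transporter traffic (2.59 ± 0.10), the fat-cell hormone Lep (2.48 ± 0.22), the lipid droplet protein Cidec (2.32 ± 0.18), the clock repressor Per2 (2.28 ± 0.27), Tmem45b (2.24 ± 0.17) and the fatty acid synthase Fasn (2.24 ± 0.13). In DEX alone Glra3 was at 7.58–10.3 CPM, Lcn2 at 65–84.6 and Pnmt at 16.4–22.8. All 12 also rose in DEX alone against NT, where 9.94% of all genes tested rose, with the same NT libraries in both comparisons. Tested directly against DEX alone, 6 of the 12 were higher with extract (Ptger3, Tusc5, Lep, Per2, Tmem45b and Fasn), where 2.25% of 13769 genes were higher and 2.03% lower. That comparison shares the extract libraries by which the 12 were chosen.

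The 12 largest falls, among genes with at least 5 CPM in NT, included antigen presentation, matrix, clock and glycogen genes. The first of these was Retnla, a secreted protein of alternatively activated macrophages (chromosome 16, 48842551 to 48844461, plus strand). It was at 5.41, 8.57, 9.91, 6.08 and 7.78 CPM in NT mice and 0.629, 0.47, 0.364, 0.934 and 1.16 in the extract group (log2 -3.40 ± 0.25, adjusted p = 5.26e-07). Aplnr, the apelin receptor of endothelium (chromosome 2, 85136225 to 85139923, plus strand), was at 17, 13.4, 14.5, 13.2 and 13.3 and 2.65, 2.5, 2.38, 2.33 and 2.97 CPM, so that the lowest NT mouse was over 4 times the highest extract mouse (log2 -2.48 ± 0.10, adjusted p = 1.9e-09). Ppp1r3c, which targets protein phosphatase 1 to glycogen (chromosome 19, 36731731 to 36736653, minus strand), was at 433, 347, 377, 446 and 378 CPM in NT mice and 68.5, 72, 82.6, 109 and 123 in the extract group (log2 -2.12 ± 0.15, adjusted p = 3.66e-07). DEX alone lay between these, at 167, 266, 147 and 267, and the extract group was below it (log2 -1.22 ± 0.20, adjusted p = 0.00683). Creb3l1, a transcription factor of collagen-secreting cells, was likewise lower than NT (-2.10 ± 0.14) and lower than DEX alone (log2 -0.84 ± 0.14, adjusted p = 0.00853). The other large falls were in H2-Ab1, H2-Eb1, H2-Aa, Cd74, Arntl, Col3a1, Col1a1 and Cilp2, described below. All 12 also fell in DEX alone against NT, where 9.79% of all genes tested fell, with the same NT libraries in both comparisons. In DEX alone Retnla was at 0.426–0.834 CPM and Aplnr at 2.98–3.55. Arntl, Ppp1r3c and Creb3l1 were the 3 of the 12 that were lower with extract than in DEX alone, where 2.03% of all genes tested were lower. That comparison shares the extract libraries by which the 12 were chosen.

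**Figure D1:**
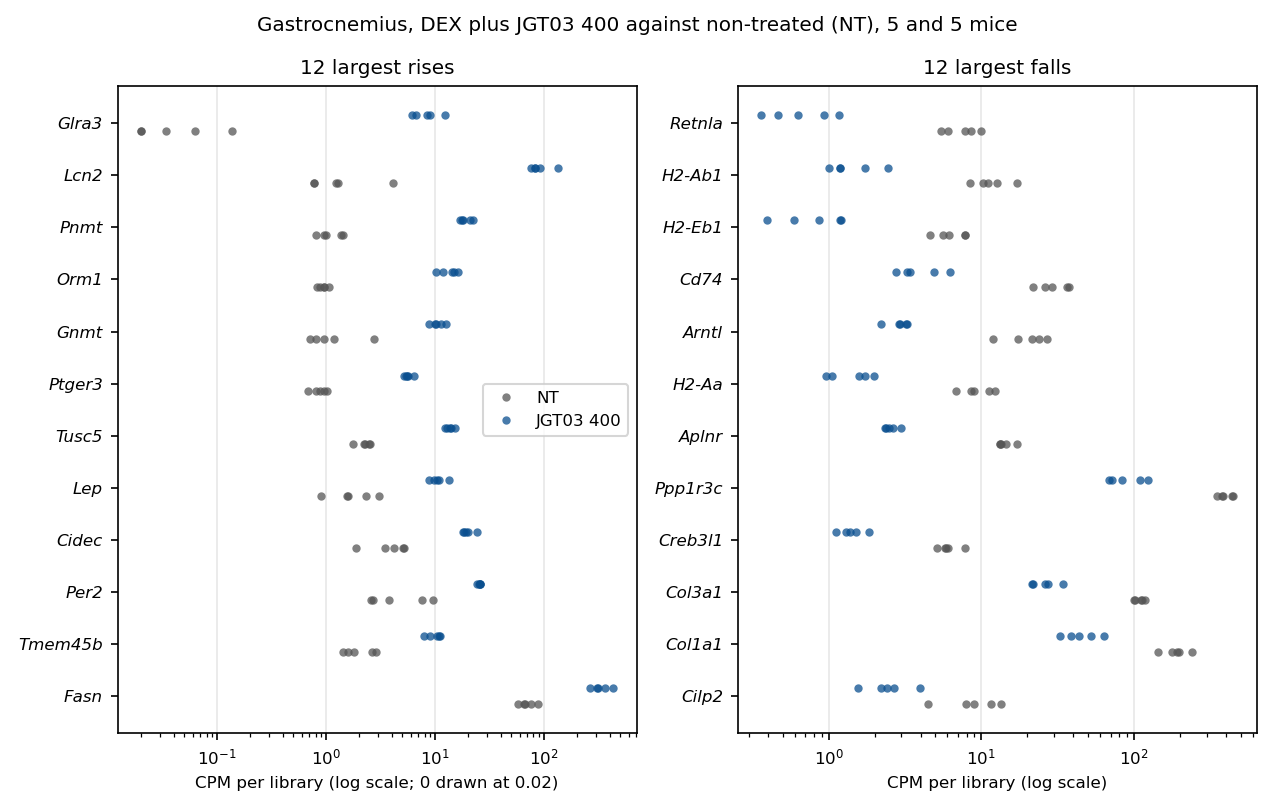
CPM in each library on a log axis for the 12 genes with the largest rises (left) and falls (right), with NT mice in grey and DEX plus JGT03 400 mice in blue. Each point is 1 mouse, and in each of the 24 genes the points of the 2 groups do not overlap, which the naming rule required.

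The genes were grouped into 41 lists of pathways and cell types. Against the background of 15.2% higher and 16.3% lower, the lists with the highest medians were those of adipocyte markers, clock repressors, erythroid markers and lipid synthesis. The lowest were those of major histocompatibility complex (MHC) class II genes, collagens, tendon markers, clock activators and endothelial markers. In the fit over all 9 GA groups the counts of clock repressors (8 rose), lipid synthesis (12 rose), adipocyte (10 rose), erythroid (5 rose), MHC class II (6 fell) and endothelial genes (13 fell) were within 1.5 times of those given below, and the other lists' counts were mostly lower. In bulk tissue fewer cells of a type and less RNA per cell cannot be told apart.

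**Figure D2:**
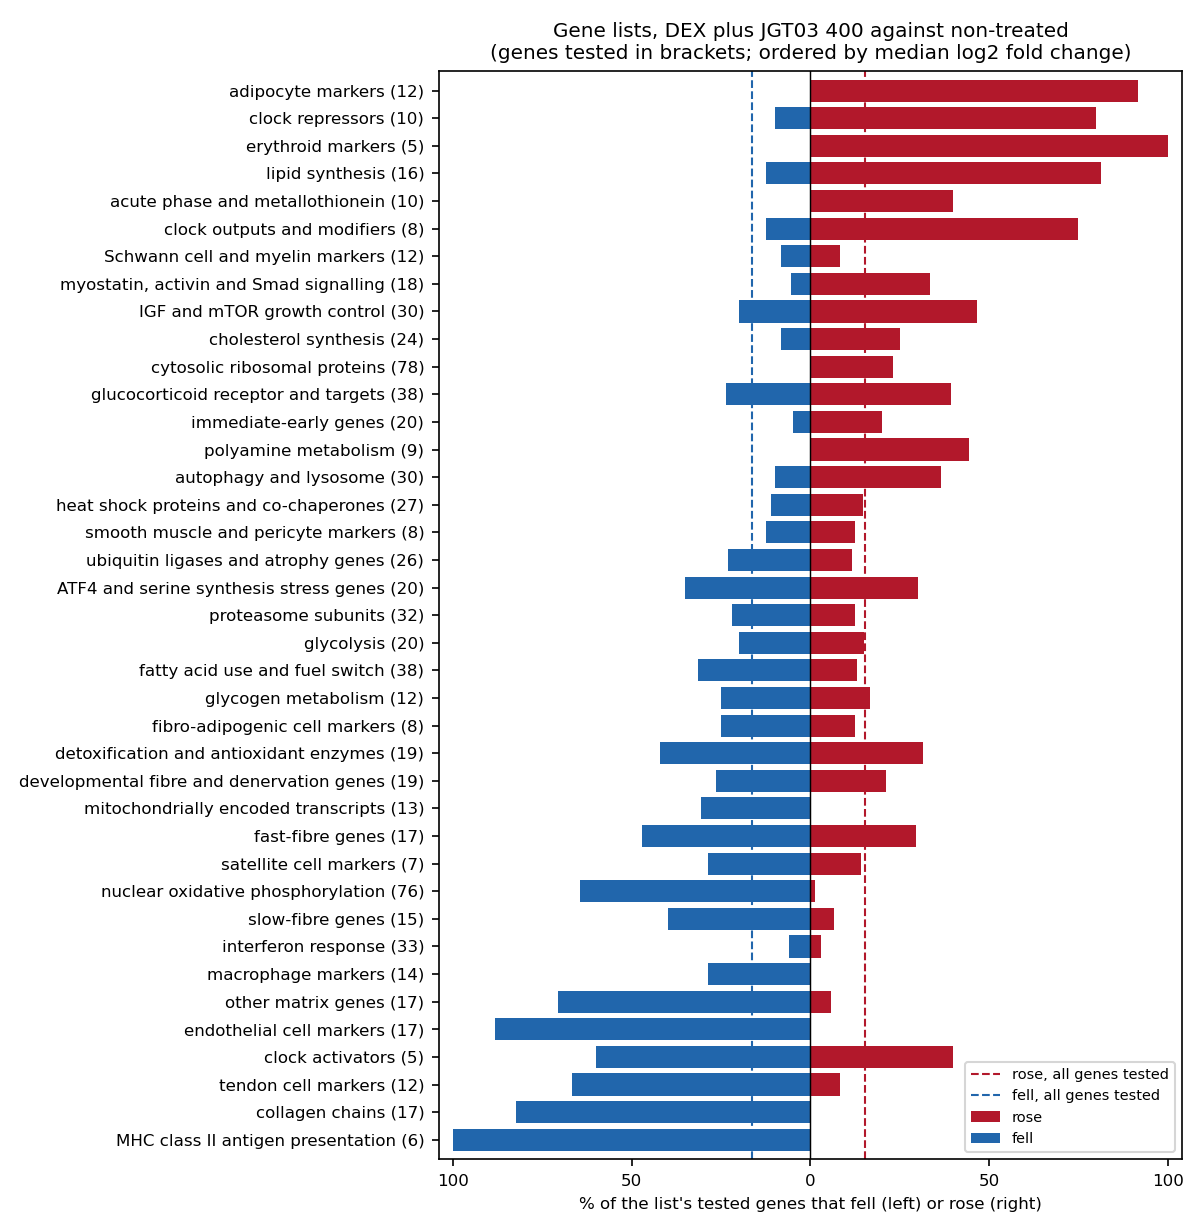
Share of each list's tested genes that rose (right, red) or fell (left, blue) in DEX plus JGT03 400 against NT, ordered by the median log2 fold change, with the number of genes tested in brackets. Dashed lines mark the shares over all genes tested, 15.2% and 16.3%; MHC class II genes fell in 6 of 6 and erythroid markers rose in 5 of 5.

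The circadian clock is a feedback loop in which Arntl (Bmal1), paired with Clock or Npas2, drives the Per, Cry and Nr1d genes through E-boxes, and these repress it in turn. Output factors such as Dbp act at D-boxes. The clock genes of the extract group were shifted away from NT in both arms of this loop. E-box and D-box matches in the promoters of 3 risen repressors are shown because they are the sites these factors are known to read. Promoter bases are RefSeq's for GRCm38.p6, the 250 bases before the annotated start, 5′ to 3′, with matches in capitals. The letters searched on both strands were CACGTG for the E-box and TTATGTAA for the D-box.
Per1 (chr11:69098699-69098948, plus strand): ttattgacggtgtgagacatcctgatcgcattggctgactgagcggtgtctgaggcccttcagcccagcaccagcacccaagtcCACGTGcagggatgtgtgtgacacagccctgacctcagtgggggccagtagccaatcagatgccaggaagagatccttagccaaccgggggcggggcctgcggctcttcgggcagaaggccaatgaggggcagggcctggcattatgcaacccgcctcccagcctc
Ciart (chr3:95882229-95882478, minus strand): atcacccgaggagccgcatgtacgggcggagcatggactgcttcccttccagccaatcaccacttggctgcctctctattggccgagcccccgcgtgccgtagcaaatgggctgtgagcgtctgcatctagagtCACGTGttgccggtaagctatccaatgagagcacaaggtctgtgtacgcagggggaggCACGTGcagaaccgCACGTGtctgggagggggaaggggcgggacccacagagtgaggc
Per3 (chr4:151044666-151044915, minus strand): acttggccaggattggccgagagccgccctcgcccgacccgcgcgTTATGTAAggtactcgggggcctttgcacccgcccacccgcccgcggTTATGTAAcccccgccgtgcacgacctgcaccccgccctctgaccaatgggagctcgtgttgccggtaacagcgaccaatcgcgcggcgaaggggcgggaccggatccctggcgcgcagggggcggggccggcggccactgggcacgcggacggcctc
Per1 held 1 E-box, Ciart 3 E-boxes and Per3 2 D-boxes. Of 32851 promoter windows of this length 6.02% held the E-box letters and 0.819% the D-box letters. Of 23 clock genes listed, 18 had windows, and E-box letters stood in 6 of their 26 windows (23.1%). D-box letters stood in 1 of the 26 (3.85%), that of Per3. The windows shown were picked for holding the letters, and that of Per1 lies inside the gene's annotated span, given below. A match is a description of the sequence only.

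Among the activators, Arntl (chromosome 7, 113207465 to 113314126, plus strand) was at 23.9, 26.8, 11.8, 21.6 and 17.5 CPM in NT mice and at 2.22, 2.89, 3.28, 2.93 and 3.21 in the extract group (log2 -2.81 ± 0.20, adjusted p = 4.75e-07). NT mouse 3 was the lowest of its group and still well above every extract mouse. Npas2 fell from 1.24–2.67 to 0.0662–0.274 CPM (-3.68 ± 0.33) and Clock from 29.6–33.9 to 18.8–23 (-0.60 ± 0.06). Rora, a nuclear receptor that activates Arntl, rose by 0.55 ± 0.08. Of 5 activators tested 2 rose and 3 fell, and their summed level was 242 to 307 CPM in NT and 309 to 350 in the extract group.

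Of 10 repressors tested 8 rose and 1 fell, with a median of 1.04 against -0.0037 over all genes. Per2 (chromosome 1, 91415982 to 91459324, minus strand) was at 2.71, 2.57, 9.51, 3.8 and 7.64 CPM in NT mice and 25.7, 24.1, 25.7, 25.7 and 25.3 in the extract group (log2 2.28 ± 0.27, adjusted p = 3.59e-05). The NT mice were widely spread, with mice 3 and 5 the highest, and the extract mice lay within a narrow range. Per1 (chromosome 11, 69095217 to 69109960, plus strand) had the same high NT mice, at 10.3, 7.52, 24.7, 11.3 and 16.5 CPM, and was at 38, 43.6, 37.6, 36 and 34.3 in the extract group (log2 1.43 ± 0.23, adjusted p = 0.000369). Ciart and Per3 rose by 2.12 ± 0.35 and 1.32 ± 0.17, Bhlhe40 and Cry2 by 1.04 ± 0.15 and 1.03 ± 0.07, and Nr1d2 and Bhlhe41 by 0.61 ± 0.06 and 0.52 ± 0.05. Cry1 was at 0.10 ± 0.10 and did not pass (adjusted p = 0.458). Nr1d1, the Rev-erb alpha repressor of Arntl (chromosome 11, 98767932 to 98775333, minus strand), went the other way, from 259, 275, 214, 284 and 247 CPM in NT mice to 175, 181, 180.1, 168 and 134 (log2 -0.62 ± 0.09, adjusted p = 0.000155). No hour of collection is given in the sources used here.

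Of 8 outputs and modifiers 6 rose and 1 fell. Dbp was at 37.9, 34.8, 99.8, 44.8 and 93.3 CPM in NT mice, with mice 3 and 5 again highest, and at 189, 182, 181, 190.2 and 177 in the extract group (log2 1.56 ± 0.25, adjusted p = 0.000455). Hlf, Tef and the deubiquitinase Usp2 rose by 0.96 ± 0.08, 0.33 ± 0.09 and 1.01 ± 0.10, and Nfil3, a repressor at D-boxes, fell (-0.60 ± 0.16). In DEX alone against NT, the changes were -2.18 ± 0.21 for Arntl, 1.80 ± 0.32 for Per2, 0.77 ± 0.26 for Per1 (adjusted p = 0.0535) and 0.21 ± 0.15 for Nr1d1 (adjusted p = 0.364). Nr1d1 was at 334, 362, 304 and 186 CPM in DEX alone, where mouse 4 was far below the others, and without that mouse DEX passed above NT (log2 0.38 ± 0.09, adjusted p = 0.011). The direct comparison of extract with DEX alone put Per1 higher (log2 0.66 ± 0.07, adjusted p = 0.000769), Per2 higher (log2 0.47 ± 0.10, adjusted p = 0.0203), and Arntl, Clock, Nr1d1 and Nfil3 lower (-0.63 ± 0.13, -0.36 ± 0.07, -0.83 ± 0.15 and -0.65 ± 0.11). Dbp did not pass there (-0.01 ± 0.06, interval -0.12 to 0.11). Of 10 repressors 5 were higher and 1 lower than in DEX alone, against 2.25% and 2.03% of all genes tested.

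**Figure D3:**
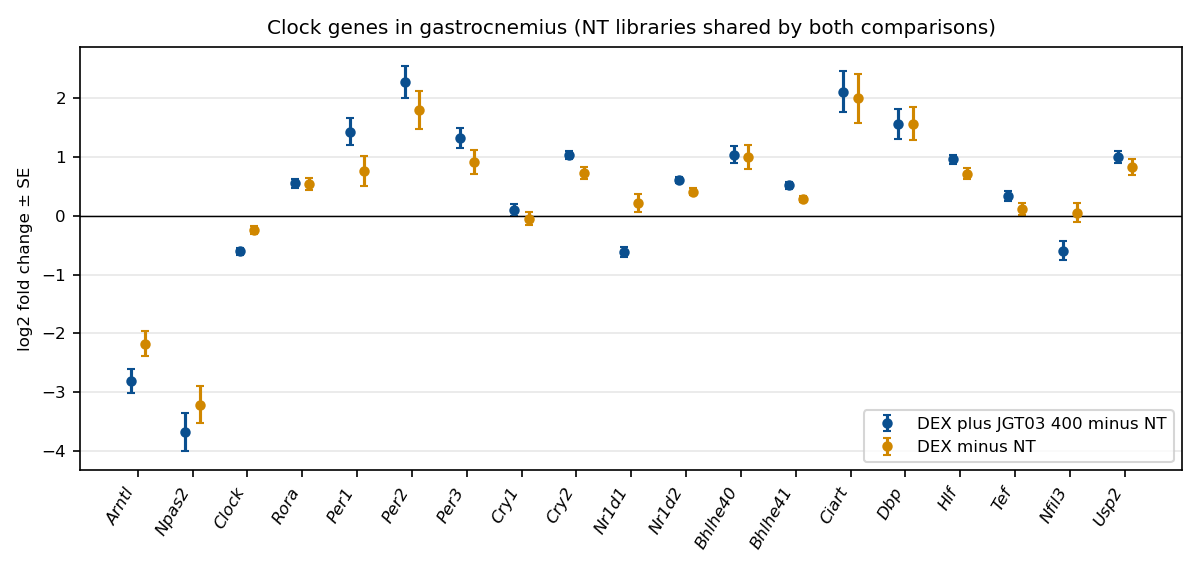
Log2 fold changes ± SE of 19 clock genes against NT, for DEX plus JGT03 400 (blue, n = 5 and 5) and DEX alone (orange, n = 4 and 5); both use the same NT libraries. Arntl and Npas2 lie lowest, Per2 and Ciart highest, and Nr1d1 stands at -0.62 with extract and 0.21 with DEX alone.

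Lipid synthesis genes were mostly higher. Of 16 tested 13 rose and 2 fell, with a median of 0.90. Fasn (chromosome 11, 120805846 to 120824547, minus strand) was at 58.1, 88.4, 76.7, 65.7 and 67 CPM in NT mice and 367, 431, 265, 315 and 305 in the extract group (log2 2.24 ± 0.13, adjusted p = 1.26e-07). Scd1, which makes monounsaturated fatty acids (chromosome 19, 44394455 to 44407879, minus strand), was at 168, 297, 266, 271 and 292 and 1234, 1482, 848, 1203 and 1219 CPM (log2 2.21 ± 0.16, adjusted p = 4.94e-07). Each extract mouse was well above every NT mouse in both genes. Agpat2, an enzyme of phosphatidic acid synthesis, rose 3.96-fold (1.99 ± 0.09), Srebf1, the transcription factor that drives these genes, rose by 1.01 ± 0.05, and Elovl6, a fatty acid elongase, by 1.11 ± 0.20. The 2 that fell were the phosphatidate phosphatase Lpin1 (log2 -0.51 ± 0.05, adjusted p = 5.44e-06) and the elongase Elovl5 (-0.31 ± 0.07).

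Compared directly with DEX alone, 9 of the 16 were higher with extract and 1 was lower, where 2.25% of all genes tested were higher and 2.03% lower. Fasn in DEX alone was at 195, 228, 179 and 160.1 CPM and Scd1 at 470.2, 694, 583 and 469, between NT and extract in both. The extract group was above DEX by 0.82 ± 0.13 for Fasn (adjusted p = 0.00533), 1.11 ± 0.15 for Scd1 (adjusted p = 0.00196), 0.59 ± 0.08 for Agpat2 and 1.03 ± 0.22 for Elovl6. Elovl6 did not pass in DEX alone against NT (0.07 ± 0.18, adjusted p = 0.808), and its difference from DEX missed the threshold without extract mouse 1, DEX mouse 1 or DEX mouse 3 (adjusted p up to 0.0577). At the lower dose the mice were divided: Fasn was at 101, 149, 132, 318 and 330.2 CPM and Scd1 at 329.9, 613, 525, 1311 and 1056, so that mice 4 and 5 lay in or near the range of the higher dose and mice 1 to 3 did not. Between the doses Lpin1 was the 1 of 16 that passed, lower at 400 mg/kg (log2 -0.33 ± 0.05, adjusted p = 0.00891), where 0.947% of 13623 genes were higher and 1.32% lower.

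Adipocyte markers rose together with these genes: 11 of 12 tested rose and 1 did not pass, with a median of 1.38. The summed level of the 13 listed markers was 177 to 249 CPM in NT, 308 to 380.0 in DEX, 196 to 462 at 100 mg/kg and 364 to 482 at 400 mg/kg, and Ucp1 had no count in the 10 libraries. Plin1, the coat protein of fat-cell lipid droplets (chromosome 7, 79720218 to 79732903, minus strand), was at 5.38, 11.3, 8.2, 7.77 and 8.87 CPM in NT and 29.4, 33.5, 27.1, 34 and 36.2 in the extract group (log2 1.94 ± 0.14, adjusted p = 5.64e-07). Lep (chromosome 6, 29060220 to 29073877, plus strand) was at 0.891, 3.06, 1.6, 1.55 and 2.34 and 9.84, 10.5, 8.81, 13.5 and 10.9 CPM, and DEX alone, at 4.77, 3.72, 8.22 and 5.44, lay below the extract group (log2 0.95 ± 0.18, adjusted p = 0.015). The lipid regulator Thrsp rose by 1.49 ± 0.10 and the serine protease Cfd, or adipsin, by 1.13 ± 0.23. At 100 mg/kg Plin1 was at 11.2, 19, 20.6, 36.9 and 33 CPM, with mice 4 and 5 the highest, as for Fasn and Scd1. The part of fat tissue in the lipid synthesis result was not tested.

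**Figure D4:**
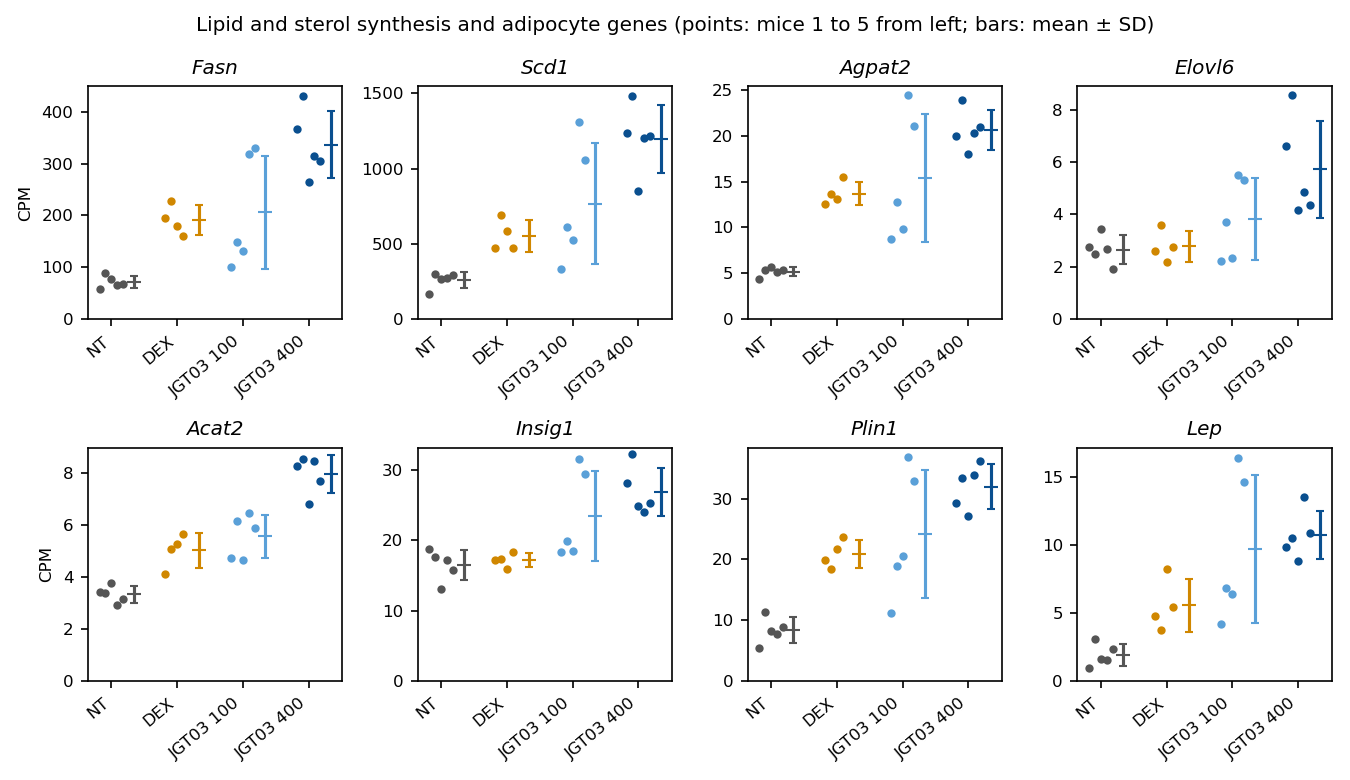
CPM of 8 genes of lipid and sterol synthesis and of fat cells in the 4 GA groups, with 1 point a mouse and mean ± SD at the right of each group (n = 5, 4, 5 and 5). JGT03 400 mice lie above NT mice in all 8 panels, and at 100 mg/kg mice 4 and 5 stand above mice 1 to 3 in Fasn, Scd1, Agpat2, Elovl6, Insig1, Plin1 and Lep.

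Of 24 cholesterol synthesis genes 6 rose and 2 fell, with a median of 0.08. Insig1, which holds sterol regulators in the endoplasmic reticulum, went from 13.1–18.8 to 24–32.3 CPM (log2 0.70 ± 0.10, adjusted p = 0.000129) and was also above DEX alone (log2 0.64 ± 0.08, adjusted p = 0.00185). Acat2 rose by 1.26 ± 0.09, but shares 43.7% of its words with further genes. Of 38 fatty acid use genes 5 rose and 12 fell. The droplet protein Plin2 rose (0.38 ± 0.06), and Hadh and Hadhb, enzymes of beta-oxidation, fell (-0.34 ± 0.05 and -0.24 ± 0.03; 23.3% of the words of Hadhb recur elsewhere).

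Nuclear genes of oxidative phosphorylation fell by small amounts: 49 of 76 passed downwards and 1 upwards, with a median of -0.17. Atp5b, the beta subunit of ATP synthase, was at 2188, 2132, 2101, 2117 and 2016 CPM in NT mice and 1758, 1669.6, 1734, 1692 and 1757 in the extract group (log2 -0.30 ± 0.04, adjusted p = 4.96e-05), with no overlap. The exception was the complex I subunit Ndufs4, which rose by 0.29 ± 0.06. Of 13 mitochondrially encoded transcripts 4 fell and 9 did not pass, among the 4 mt-Co1 (-0.27 ± 0.05), 63.9% of whose words recur elsewhere. The 4 became 1 or 2 without any 1 of extract mice 1, 3, 4 and 5 and NT mice 1, 4 and 5. The median difference of the 76 nuclear genes between extract and DEX alone was -0.01. In the fit over all 9 GA groups 3 of the 76 fell, and 41 without JGT02 100 mg/kg mouse 1.

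MHC class II molecules present peptides to T cells and are made by macrophages, dendritic cells and B cells. Of 8 listed genes 6 passed the filter on low counts, and these 6 fell, with a median of -2.79. The Y-box, a promoter element at which MHC class II genes are known to be controlled, is shown for H2-Aa and H2-Eb1, from RefSeq with the build and length as above and the letters CTGATTGG, searched on both strands, in capitals.
H2-Aa (chr17:34287824-34288073, minus strand): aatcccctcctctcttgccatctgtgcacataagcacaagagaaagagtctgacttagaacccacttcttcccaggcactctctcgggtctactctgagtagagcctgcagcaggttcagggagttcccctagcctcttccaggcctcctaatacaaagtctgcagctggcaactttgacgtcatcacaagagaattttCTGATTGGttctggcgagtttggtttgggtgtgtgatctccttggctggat
H2-Eb1 (chr17:34305617-34305866, plus strand): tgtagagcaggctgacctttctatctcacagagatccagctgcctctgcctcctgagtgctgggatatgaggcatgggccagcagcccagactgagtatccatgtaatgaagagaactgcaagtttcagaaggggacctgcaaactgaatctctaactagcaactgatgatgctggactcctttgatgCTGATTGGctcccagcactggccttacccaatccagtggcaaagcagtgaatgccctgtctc
The letters lay 51 and 62 bases before the start. They stood in 3 of 6 windows of the list, which cover 5 of its 8 genes, against 3.83% of all windows. The third match was in H2-Oa, which did not pass the filter on low counts. In the clock lists they stood in 4 of 26 windows (15.4%).

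H2-Ab1 (chromosome 17, 34257689 to 34269419, plus strand) was at 8.4, 11.1, 17.1, 10.2 and 12.7 CPM in NT mice and 1.19, 1.01, 1.19, 1.73 and 2.46 in the extract group (log2 -2.97 ± 0.23, adjusted p = 1.04e-06). Cd74, the invariant chain that escorts MHC class II (chromosome 18, 60803848 to 60812652, plus strand), was at 21.9, 29.1, 37.7, 26.1 and 36.1 and 3.28, 3.4, 2.75, 4.87 and 6.19 CPM (log2 -2.88 ± 0.20, adjusted p = 3.95e-07). NT mouse 3 was the highest in both, and the groups did not overlap. H2-Eb1 and H2-Aa fell (-2.91 ± 0.23 and -2.70 ± 0.20), and so did the peptide-loading chains H2-DMa and H2-DMb1 (-1.04 ± 0.25 and -1.49 ± 0.24). Against DEX alone the median of the 6 was -0.07, and Cd74 did not pass (-0.11 ± 0.23, interval -0.56 to 0.35). Of 14 macrophage markers 4 fell and 10 did not pass, with a summed level of 83 to 109 CPM in NT and 64.8 to 85.6 in the extract group. The integrin Itgam and the lysozyme Lyz2 fell (-1.45 ± 0.22 and -0.54 ± 0.09), but share 68.1% and 32.8% of their words with other genes. Of 14 lymphocyte markers 1 passed the filter and of 7 neutrophil markers none did. The part of cell numbers in the fall of MHC class II genes was not tested.

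Connective tissue genes were lower in the extract group than in NT. Of 17 collagen chains 14 fell and 3 did not pass, with a median of -0.97. In DEX alone against the same NT mice 15 of 17 collagens fell, with a median of -0.72, and 8 of 17 other matrix genes fell. Over all genes 9.79% fell there. Col3a1 (chromosome 1, 45311538 to 45349706, plus strand) was at 112, 102, 112, 117 and 99.7 CPM in NT mice and 27.4, 21.5, 21.9, 26.1 and 34 in the extract group (log2 -2.06 ± 0.10, adjusted p = 3.64e-08). Col1a1 (chromosome 11, 94936224 to 94953042, plus strand) was at 143, 176, 196, 237 and 191 and 63.5, 38.6, 32.5, 43.7 and 52 CPM (log2 -2.04 ± 0.16, adjusted p = 1.33e-06). The lowest NT mouse was over 2 times the highest extract mouse in both genes. The basement membrane collagen Col15a1 fell (-1.02 ± 0.06), as did the microfibril protein Fbn1 (-1.68 ± 0.11) and the collagen cross-linking enzyme Loxl2 (-1.45 ± 0.10), 46.2% of whose words recur elsewhere. Of 17 other matrix genes 12 fell and 1, the protease inhibitor Timp3, rose (0.19 ± 0.06), a call lost without any 1 of 6 libraries (extract mice 2, 4 and 5 and NT mice 1, 3 and 4, adjusted p up to 0.0809). In the fit over all 9 GA groups 9 collagens and 4 other matrix genes fell.

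Compared with DEX alone, 4 of 17 collagens were lower with extract and 1 higher, against 2.03% and 2.25% of all genes tested. Col15a1 was lower (log2 -0.30 ± 0.06, adjusted p = 0.0213), and so was Fbn1 (log2 -0.50 ± 0.11, adjusted p = 0.0286), while Col1a1 (-0.37 ± 0.18) and Col3a1 (-0.36 ± 0.15) did not pass. Tendon cell markers fell in 8 of 12 and rose in 1 against NT, and in DEX alone against NT 7 fell and 1 rose. Thbs4 was at 54.7, 117, 100.3, 132 and 101 CPM in NT and 48.9, 51.5, 34.3, 41.7 and 41.6 in the extract group (-1.22 ± 0.18), NT mouse 1 being near the extract mice, and Cilp2 fell (-1.86 ± 0.28). The tendon transcription factor Scx rose (0.68 ± 0.13). The summed level of the 12 tendon markers was 217 to 578 CPM in NT and 192 to 289 in the extract group, and its part in the collagen result was not tested. The summed level of 8 markers of fibro-adipogenic cells, the fibroblasts of muscle, overlapped, at 772 to 941 CPM in NT and 774 to 935 with extract, and of these Cd34 rose (0.26 ± 0.05) and Pdgfra and Mfap5 fell (-0.44 ± 0.09 and -0.33 ± 0.10). The call of Mfap5 was lost without any 1 of extract mice 1, 2 and 4 and NT mice 1 and 2 (adjusted p up to 0.0705).

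Of 17 endothelial markers 15 fell and 2 did not pass, with a median of -0.46. Their summed level was 488 to 505 CPM in NT, 415 to 430.3 in DEX, 368 to 427 at 100 mg/kg and 346 to 393 at 400 mg/kg. NT, DEX and 400 mg/kg did not overlap, and 100 mg/kg overlapped the last 2. Tek, the angiopoietin receptor, was at 28.1, 25.8, 25.5, 25.2 and 27.6 CPM in NT mice and 16.8, 19, 17.1, 15.5 and 17.2 in the extract group (log2 -0.63 ± 0.06, adjusted p = 2.93e-06), and was lower than in DEX alone (log2 -0.32 ± 0.07, adjusted p = 0.0249). In all 6 of 17 were lower with extract than with DEX alone and 11 did not pass, where 2.03% of all genes tested were lower. Of 8 smooth muscle and pericyte markers Cspg4 rose (0.31 ± 0.06), Pdgfrb fell (-0.26 ± 0.04) and 6 did not pass. Erythroid markers rose in 5 of 5, with a summed level of 219.9 to 268 CPM in NT and 317 to 784 with extract, where mouse 5 was the highest. Hba-a2 was at 157, 206, 160.0, 128 and 308 CPM in the extract mice (0.97 ± 0.18) and shares 92.6% of its words with other genes.

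The 2 ubiquitin ligases most used as marks of muscle atrophy were lower with extract than in NT. Fbxo32 (atrogin-1), a muscle ubiquitin ligase (chromosome 15, 58175879 to 58214932, minus strand), was at 453, 569, 286, 388 and 830.2 CPM in NT mice and 226, 186, 192, 205 and 224 in the extract group (log2 -1.29 ± 0.21, adjusted p = 0.000459). Trim63 (MuRF1), the other classic ligase (chromosome 4, 134315120 to 134329629, plus strand), was at 198, 205, 122, 172 and 271 and 133, 148, 129, 140.1 and 129.9 CPM (log2 -0.51 ± 0.15, adjusted p = 0.018), where NT mouse 3 lay below all extract mice. Asb2, which marks desmin and filamins for removal, fell (-0.91 ± 0.11), as did the ligases Fbxo40 (-0.35 ± 0.04), Smurf1 (-0.27 ± 0.05) and Nedd4l (-0.25 ± 0.05). Nedd4 rose from 403–444 to 527–545 CPM (log2 0.33 ± 0.04, adjusted p = 1.38e-05), and Cblb and Fbxo31 rose by 0.24 ± 0.06 and 0.16 ± 0.05. Of the 26 genes of the list 3 rose, 6 fell and 17 did not pass. In DEX alone against the same NT mice, Fbxo32 and Trim63 were lower too (log2 -1.11 ± 0.28, adjusted p = 0.017; log2 -0.80 ± 0.17, adjusted p = 0.00737). In the direct comparison Trim63 was higher than in DEX alone (log2 0.28 ± 0.07, adjusted p = 0.035) and Fbxo40 lower (log2 -0.17 ± 0.04, adjusted p = 0.0395), while Fbxo32 did not pass (-0.18 ± 0.16). Fbxo32 was at 243, 293, 265 and 133 CPM in DEX alone, with mouse 4 below every extract mouse and the others above every extract mouse. The forkhead factor Foxo4 rose by 0.22 ± 0.04, and Foxo1 and Foxo3 did not pass (0.13 ± 0.06 and -0.07 ± 0.05).

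Of 32 proteasome subunits 4 rose and 7 fell, with Psma1 at -0.31 ± 0.04 and the activator Psme4 at 0.19 ± 0.05. The risen count was 1 without extract mouse 3 and 2 without NT mouse 2. Of 30 autophagy and lysosome genes 11 rose and 3 fell. Ulk2, a kinase that starts autophagy, rose from 117–134 to 164–175 CPM (log2 0.41 ± 0.04, adjusted p = 6.98e-06), Tfeb, the transcription factor of lysosomal genes, by 0.37 ± 0.04, and the autophagy receptor Sqstm1 fell (-0.22 ± 0.05).

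Growth control genes moved in both directions. Of 30 genes of insulin-like growth factor (IGF) and mTOR signalling 14 rose and 6 fell. The receptor Igf1r rose from 14.2–16.7 to 23.3–27.9 CPM (log2 0.72 ± 0.06, adjusted p = 2.78e-06), the ligand Igf1 by 0.47 ± 0.13 (adjusted p = 0.0154), and the mTOR inhibitor Deptor by 0.43 ± 0.06. The binding protein Igfbp5 fell from 689–1122 to 278–425 CPM (log2 -1.29 ± 0.14, adjusted p = 1.95e-05), and so did the adaptor Grb10, which dampens insulin and IGF signals (-0.63 ± 0.06). In the myostatin and activin pathway 6 of 18 rose and 1 fell. Acvr1b, an activin type I receptor (chromosome 15, 101174067 to 101213684, plus strand), was at 56.4, 55, 49.2, 54.3 and 60.6 CPM in NT, 102, 87.1, 105 and 79 in DEX, 122, 121, 117, 109 and 121 at 100 mg/kg and 149, 162, 149, 152 and 140.0 at 400 mg/kg. These 4 groups did not overlap, and the higher dose passed against NT (log2 1.45 ± 0.05, adjusted p = 1.9e-09), against DEX (log2 0.68 ± 0.08, adjusted p = 0.00155) and against the lower dose (log2 0.35 ± 0.05, adjusted p = 0.0024). The bone morphogenetic protein receptor Bmpr1a rose by 0.66 ± 0.06, the activin antagonist Fst fell (-0.64 ± 0.11), and myostatin, Mstn, did not pass (log2 0.24 ± 0.11, adjusted p = 0.108). Mstn rose in DEX alone against NT (log2 0.44 ± 0.12, adjusted p = 0.0208) and did not pass between extract and DEX (log2 -0.19 ± 0.05, adjusted p = 0.0561).

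Contractile genes of both fibre types changed in both directions. The myosins Myh4 and Myh2 did not pass (-0.09 ± 0.06 and -0.18 ± 0.15), and Myh1 and the slow Myh7 fell (-0.19 ± 0.05 and -0.32 ± 0.11). These 4 share between 22.9% and 37.9% of their words with other genes. Of 17 fast-fibre genes 5 rose and 8 fell. Mss51, a fast-muscle protein linked to mitochondria, was at 155, 108, 58.4, 157 and 140.0 CPM in NT and 414, 282, 353, 371 and 289 in the extract group (log2 1.46 ± 0.21, adjusted p = 0.000185), without overlap. The myosin kinase Mylk2 rose by 0.79 ± 0.09, the Z-disc protein Myoz1 by 0.44 ± 0.05 and Actn3 by 0.39 ± 0.05, while the light chain Myl1, the calcium buffer Pvalb and the troponin Tnnc2 fell (-0.48 ± 0.06, -0.31 ± 0.05 and -0.29 ± 0.04), and 14.5% of the words of Myl1 recur elsewhere. Of 15 slow-fibre genes 6 fell, among them Myl3 (-0.56 ± 0.09), and 1, the calcium pump regulator Pln, rose (0.41 ± 0.13). Without any 1 of extract mice 2, 3 and 5 and NT mice 2 and 4, 3 slow-fibre genes fell. Their count was 0 in the fit over all 9 GA groups and 2 there without JGT02 100 mg/kg mouse 1, and the fast-fibre counts there were 1 up and 1 down, and 5 up and 6 down. The call of Myh7 was lost without any 1 of extract mice 2, 3 and 5 and NT mice 2, 3 and 4 (adjusted p up to 0.0955), and that of Pln without extract mouse 1 or 4 or NT mouse 1 or 4 (adjusted p up to 0.0667). Against DEX alone the medians were 0.01 for fast and 0.04 for slow genes.

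Of 38 genes of the glucocorticoid receptor and its known targets 15 rose and 9 fell, with a median of 0.07. In the fit over all 9 GA groups 8 rose and 3 fell. A glucocorticoid response element with the letters AGAACA, any 3 bases and TGTTCT stood in 3 of 32851 promoter windows (0.00913%), one of them that of Sgk1, a kinase and known receptor target. It is shown because Sgk1 was the one gene with it among the 30 of 38 listed genes that had a window. Bases and capitals are as above.
Sgk1 (chr10:21993640-21993889, plus strand): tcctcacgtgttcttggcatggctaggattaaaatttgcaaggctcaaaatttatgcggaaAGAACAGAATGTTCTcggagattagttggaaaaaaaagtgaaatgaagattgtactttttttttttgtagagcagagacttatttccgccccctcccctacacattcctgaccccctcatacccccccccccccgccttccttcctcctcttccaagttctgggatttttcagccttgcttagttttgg
Sgk1 was at 72.7, 72.1, 100.3, 104 and 119 CPM in NT mice and 114, 107, 142, 127 and 136 in the extract group (log2 0.42 ± 0.13, adjusted p = 0.0254), with overlap. It was at 111, 72.6, 97 and 91.4 in DEX alone, lower by the test (log2 0.43 ± 0.11, adjusted p = 0.0469), with the highest DEX mouse inside the extract range.

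Receptor targets beside Lcn2, Pnmt, Per1 and Per2 that rose were the transcription factors Klf9 (0.55 ± 0.04) and Cebpa (1.24 ± 0.12), Arrdc3 (0.83 ± 0.10), the phosphatase Dusp1 (0.49 ± 0.12), Hsd11b1, which regenerates active glucocorticoid (0.47 ± 0.11), and Nnmt (1.22 ± 0.19). Others fell below NT. Zbtb16, a transcription factor strongly induced by glucocorticoid in many cells (chromosome 9, 48654297 to 48836222, minus strand), was at 38.7, 34, 23, 35.6 and 25.9 CPM in NT mice and 18.2, 16.4, 19.9, 16.3 and 18.9 with extract (log2 -0.81 ± 0.12, adjusted p = 0.000291). DEX alone was at 29.3, 26.2, 26.4 and 41.9, above the extract group (log2 -0.79 ± 0.13, adjusted p = 0.00549), and did not pass against NT (log2 -0.02 ± 0.17, adjusted p = 0.946). Fkbp5, a co-chaperone of the receptor (chromosome 17, 28399094 to 28517527, minus strand), was at 85.8, 72.9, 52, 53.9 and 59.8 CPM in NT and 46.9, 43.1, 60.4, 39.8 and 46 with extract (log2 -0.46 ± 0.14, adjusted p = 0.0206). Extract mouse 3 lay inside the NT range, and the call was lost without NT mouse 2 or without extract mouse 2 or 4 (adjusted p up to 0.0544). All 4 DEX mice, at 81.9, 74.7, 69 and 74.8, were above the extract group (log2 -0.67 ± 0.10, adjusted p = 0.00345). Fkbp5 in DEX alone did not pass against NT (log2 0.21 ± 0.13, adjusted p = 0.279). Ddit4, Sesn1, Ampd3 and Klf15 fell (-0.63 ± 0.14, -0.41 ± 0.08, -0.30 ± 0.06 and -0.31 ± 0.07). Tsc22d3 (GILZ) and Pdk4, 2 commonly used target genes, did not pass (log2 0.18 ± 0.08, adjusted p = 0.119; log2 -0.57 ± 0.33, adjusted p = 0.209), and the receptor gene Nr3c1 rose slightly (log2 0.15 ± 0.05, adjusted p = 0.0313), a call lost without any 1 of extract mice 1, 2 and 4 and NT mice 1, 3 and 4 (adjusted p up to 0.0663).

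Directly compared with DEX alone, 590 of 13769 genes differed (4.28%), 310 higher and 280 lower with extract. Among the largest differences were Scd1, Lep and Elovl6, given above, Adora1, an adenosine receptor (log2 1.05 ± 0.17, adjusted p = 0.00671), and Zfp503 (log2 0.87 ± 0.10, adjusted p = 0.00171) on the higher side. On the lower side were the metallothionein Mt2, Banp and Cyp26b1, which breaks down retinoic acid. Mt2 was at 14.5, 29.4, 10.5 and 18.4 CPM in DEX alone and 5.83, 6.3, 7.18, 6.5 and 6.67 with extract (log2 -1.49 ± 0.22, adjusted p = 0.00399), whereas NT mice were at 4.72–28.7 and the extract group did not pass against them (-0.89 ± 0.40). Banp, a nuclear matrix protein, rose in DEX alone (log2 0.87 ± 0.15, adjusted p = 0.00185), was lower with extract (log2 -1.07 ± 0.16, adjusted p = 0.00391) and did not pass between extract and NT (-0.20 ± 0.12, interval -0.43 to 0.03). Cyp26b1 was at 12.5, 20.5, 15.2, 7.7 and 13.7 CPM in NT and 4.37, 3.65, 5.33, 5.6 and 5.54 with extract (-1.51 ± 0.21), and was lower than in DEX (log2 -0.96 ± 0.14, adjusted p = 0.0035). Without 1 library the count of 590 ran from 238 (extract mouse 2 left out) to 735 (DEX mouse 4 left out), dropping by over 1.5 times without any 1 of the 5 extract mice or DEX mouse 2 or 3, and it was 98 in the fit over all 9 GA groups.

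**Figure D5:**
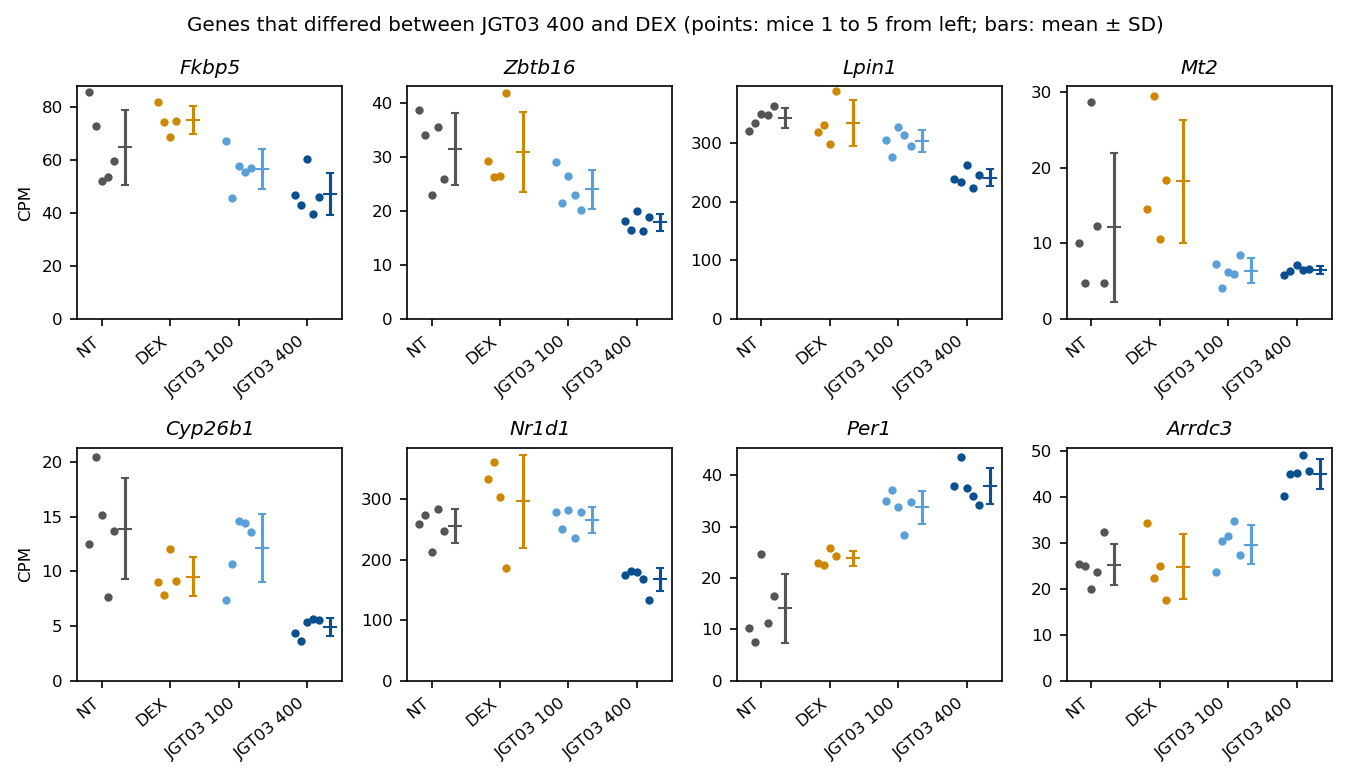
CPM of 8 genes that differed between DEX plus JGT03 400 and DEX alone, in the 4 GA groups, with 1 point a mouse and mean ± SD at the right of each group (n = 5, 4, 5 and 5). The genes were chosen after their values were seen; in Zbtb16, Lpin1 and Nr1d1 the JGT03 400 mice lie below every NT mouse, and in Per1 and Arrdc3 above every NT and DEX mouse.

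Between 400 and 100 mg/kg 309 of 13623 genes differed (2.27%), 129 higher and 180 lower at the higher dose. Pdk4, which limits glucose oxidation, was at 22.5, 59, 74.1, 29.8 and 20.5 CPM at 100 mg/kg and 94.5, 75.4, 88.7, 158 and 135 at 400 mg/kg (log2 1.42 ± 0.31, adjusted p = 0.0302). The mitochondrial carrier Ucp3 was at 22.6, 31, 34.9, 22.1 and 15.2 and 54.6, 47, 49.9, 64.5 and 67.5 CPM (log2 1.18 ± 0.17, adjusted p = 0.00464), with no overlap. The cytochrome P450 gene Cyp2e1 and Cfd were also higher (1.16 ± 0.24 and 0.96 ± 0.22), and so was the mitochondrial carrier Slc25a25 (log2 0.94 ± 0.12, adjusted p = 0.0024). Cyp26b1 was lower at 400 mg/kg (log2 -1.32 ± 0.16, adjusted p = 0.0024), as were Nr1d1 (log2 -0.67 ± 0.08, adjusted p = 0.00224), Cdkal1, a tRNA-modifying enzyme (-0.60 ± 0.12), the sodium-calcium exchanger Slc8a1 (-0.52 ± 0.10) and Ifi30, a lysosomal thiol reductase (-0.56 ± 0.11). The count ranged from 96 (without 400 mg/kg mouse 5) to 414 (without 100 mg/kg mouse 4), and dropped by over 1.5 times without any 1 library but these of 100 mg/kg mouse 4 and 400 mg/kg mouse 4. Of the genes named here, Pdk4, Cyp2e1, Cfd and Slc8a1 lost the call without any 1 of 3 to 7 libraries and Cdkal1 without 100 mg/kg mouse 5, which was among those libraries in each case (adjusted p up to 0.0828). In the fit over all 9 GA groups 9 of these 10 genes lost the call, and 3 did there without JGT02 100 mg/kg mouse 1. With the mouse number as a block 2 lost it.

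Among the remaining lists, acute phase and metallothionein genes rose in 4 of 10. Cytosolic ribosomal protein genes rose in 18 of 78 with a median of 0.08, Rps19 by 0.33 ± 0.05; in the fit over all 9 GA groups 1 of them rose. Of 20 genes of the ATF4 stress response and serine synthesis 6 rose and 7 fell. The serine synthesis enzymes Phgdh and Psat1 rose by 1.29 ± 0.15 and 1.18 ± 0.15 (55.8% of the words of Phgdh recur elsewhere), and Atf4 itself fell (log2 -0.34 ± 0.06, adjusted p = 0.000413) and was below DEX alone (log2 -0.39 ± 0.05, adjusted p = 0.00171). Aldh1a1, which makes retinoic acid, was at 92, 103, 76.1, 93.1 and 89.3 CPM in NT and 266, 275, 357, 267 and 235 with extract (log2 1.62 ± 0.10, adjusted p = 1.82e-07). Detoxification and antioxidant enzymes as a list rose in 6 and fell in 8 of 19, with Ephx1 at 0.56 ± 0.06 and Gsta4 at -0.56 ± 0.07. Of 9 polyamine genes 4 rose, Odc1 by 0.74 ± 0.16, although 31.3% of its words recur elsewhere. Hspa8, the constitutive Hsp70, fell (-0.53 ± 0.06) among 27 heat shock genes of which 4 rose and 3 fell, but it shares 43.5% of its words with other genes. The risen count was 2 without extract mouse 4 or NT mouse 1, 2 or 4. The summed heat shock level was 5069.5 to 5561 CPM in NT and 4653 to 5867 with extract, where mouse 4 was the highest and the other mice were at or below 4980.1.

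Glycolysis genes rose in 3 and fell in 4 of 20, with hexokinase Hk2 at 0.40 ± 0.06 and Hk1 at -0.35 ± 0.07. Of 12 glycogen genes 2 rose and 3 fell, the glycogen primer Gyg by 0.16 ± 0.04 upwards and Ppp1r3c as above. The fallen count was 1 without any 1 of extract mice 3 and 4 and NT mice 1 and 3. Without NT mouse 5, 7 glycolysis genes and 4 cholesterol synthesis genes fell. Immediate-early genes rose in 4 and fell in 1 of 20, Ier3 by 1.00 ± 0.12 and Nr4a1 by 0.75 ± 0.14, and the 1 fall, Klf2 (-0.41 ± 0.14), was lost without any 1 of 7 libraries, all but extract mouse 3 and NT mice 1 and 2 (adjusted p up to 0.0944). Of 33 interferon response genes 1 rose, Ifi27l2a (log2 1.57 ± 0.14, adjusted p = 2.49e-06), and 2 fell, Rsad2 (-1.66 ± 0.33) and Oas2 (-0.71 ± 0.23). The call of Oas2 was lost without any 1 of extract mice 3, 4 and 5 and NT mice 3 and 5 (adjusted p up to 0.0703). NT mouse 3 stood apart, with a summed interferon level of 493 CPM against 124 to 177 in the other NT mice. The list median was -0.21 and became 0.18 without it, when 3 rose and 1 fell. In the fit over all groups without JGT02 100 mg/kg mouse 1, 8 fell. Of 19 genes of developmental fibres and denervation 4 rose and 5 fell, among them the calcium pump regulator Sln (1.01 ± 0.15) and the acetylcholine receptor subunit Chrna1 (0.31 ± 0.08) upwards and Myl4 (-0.84 ± 0.14) and Gadd45a (-0.45 ± 0.08) downwards. The 4 became 2 without any 1 of extract mice 3 and 4 and NT mice 1, 2 and 3. Schwann cell markers rose in 1 and fell in 1 of 12, Sox10 and Ngfr at 0.32 ± 0.11 and -1.09 ± 0.19, the former call lost without any 1 of 8 libraries, all but extract mouse 1 and NT mouse 3 (adjusted p up to 0.0981). Satellite cell markers rose in 1 and fell in 2 of 7, with Itga7 at 0.20 ± 0.05 and the heparan sulphate proteoglycan Sdc4 at -0.72 ± 0.06. The other fall, Calcr, a calcitonin receptor (-0.72 ± 0.23), was lost without any 1 of extract mice 2, 4 and 5 and NT mice 2, 4 and 5.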

How the data were processed

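RNA-seq of gastrocnemius muscle was analysed in 10 mice, 5 of the JGT03 400 mg/kg group and 5 non-treated, with 4 DEX and 5 JGT03 100 mg/kg mice beside them. The labels name a single batch and a mouse for each library. Per the labels' protocols, RNA was extracted with TRIzol and sequenced on an MGI instrument from MGIEasy directional libraries. The authors deposited expected counts per gene symbol, which the submitters' processing notes tie to FastQC 0.11.9, Trim Galore 0.6.5, STAR 2.7.3a, RSEM 1.3.3 and the mouse build GRCm38. The settings, annotation and strand setting of the counting are not given in the sources used here, so reads of overlapping genes on opposite strands may have been pooled. Of the values 92.1% were whole numbers.

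Expected counts were rounded. Each comparison was fitted on its own 2 groups with edgeR 4.0.16 in R 4.3.3 (filterByExpr, TMM, quasi-likelihood F test, Benjamini-Hochberg adjustment, threshold 0.05). CPM come from 1 TMM scaling of 19 libraries. SEs are the log2 fold change divided by the square root of F. Intervals are nominal 95% intervals that take the SE as normal, so they are narrower than the F test would give. A fit over all 9 groups was only an alternative, since it holds a library of another group that stands apart, with a common dispersion of 0.0379 against 0.00714 in the 10 libraries. Results were also computed with the mouse number as a block, without each library in turn, with DESeq2 1.42.0 (test or scaling) and with no count filter. The fit was tested on simulated data with known changes.

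The members and gene lists were chosen with earlier results of these data known. Genes named are the 12 largest rises and falls (passing, at least 5 CPM in the higher group, no overlap between libraries, no predicted genes), a panel of 24, up to 2 members per list and direction by smallest p, the 5 largest differences from DEX and from 100 mg/kg, and further members of the clock, MHC class II, ubiquitin ligase, fibre and glucocorticoid lists. A few genes this rule names are not reported here. Positions are from GENCODE vM21 on GRCm38, which held 166 of 167 named genes. In 23 of these over 10% of 31-base words recur elsewhere in the transcripts, and 43 have an opposite-strand gene whose exons cover part of theirs. Promoter sequences are from a RefSeq table of GRCm38.p6. Tables and figures used Python 3.11.15, pandas 2.3.3, numpy 2.4.6 and matplotlib 3.10.9.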

Additional observations from a re-analysis of the deposited data

Results flagged for a closer look

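In 328 groups of 5 mice, formed by named genes in the 2 groups compared, 20 (6.10%) held a mouse that lay far from the others of its group, where chance flags about 1 in 20. Among NT mice, mouse 3 was the highest for Lcn2 (4.12 CPM), Gnmt (2.77) and Rsad2 (11) and the lowest for Asb2 (419). NT mouse 5 was the highest for Rora (144), Ngfr (1.49) and Zfp503 (18.9) and the lowest for Myoz1 (1895) and Srebf2 (16.2). NT mouse 1 was the lowest for Phgdh (1.06), Ifi27l2a (4.73) and Scd1 (168), and NT mouse 4 for Gsta4 (6.82).

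Among mice given DEX with JGT03 400, mouse 5 was the highest for Tsc22d3 (153 CPM), Hk2 (373), Cyp2e1 (62.7) and Cfd (116) and the lowest for Nr1d1 (134). Mouse 3 was the highest for Lcn2 (135), and mouse 2 was the lowest for Per2 (24.1), in a group that spans under 2 CPM.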

How the results depend on the processing

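The count of 4310 genes for DEX plus JGT03 400 against NT was 1859 in 1 fit over all 9 GA groups. It stayed within 1.5 times under the other alternatives, at 4302 with DESeq2 size factors, 4107 with DESeq2, 4047 without a filter, 4575 over all groups without JGT02 100 mg/kg mouse 1, and 3664 to 4269 when 1 library was left out. DEX against NT gave 2720 genes, 1214 over all 9 groups and 2031 to 2779 without 1 library. The 590 genes between extract and DEX became 98 over all 9 groups, 936 there without JGT02 100 mg/kg mouse 1, and 238 to 735 without 1 library. The 309 genes between the doses became 571 with DESeq2 (195 higher, 376 lower), 6 over all 9 groups, and 96 to 414 without 1 library.

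Samples with the same number share only that number: correlations of their deviations ran from -0.0381 to 0.0471, and 2 of 5 matched their own number best. With the mouse number as a block (replicate block) the counts were 3993, 1975, 256 and 143 in the same order. The cause of these shifts was not tested, apart from the higher dispersion of the fit over all groups.

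Of 167 named genes 154 passed against NT, where 31.5% of all genes tested passed, and 139 passed whichever 1 library was left out. Many were named because they passed this test, so these counts were largely set by the naming. In the fit over all 9 GA groups 61 of the named genes lost the call against NT, and 8 did there without JGT02 100 mg/kg mouse 1. Against DEX and between the doses, the alternatives were run only for the 10 genes with the largest differences in each. Of these, 6 and 9 lost the call in the fit over all 9 GA groups. No gene followed in this way changed direction under any alternative run. At 5 mice a group and 26778785 to 32143680 counts a library, the median SE was 0.08 on the log2 scale, which limits what small changes can be told from none, and no expression per cell can be read from bulk tissue.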
